A study of Sus scrofa with 2 samples.

Results

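The Unigenes with numbers of at most 12173 are 2086 of the 88173 features counted in 2 libraries of pig ovary RNA. Their defining trait is sparse read coverage, and they were chosen by number: every feature named Unigene with a number up to 12173 in either table was taken. A Unigene is, in common use, an assembled transcript sequence, and the remaining catalogue held 85687 other Unigenes, numbered 12191 to 127855, and 400 Ensembl transcripts. The limit of 12173 had been placed by the covered part of each feature's length. Low coverage is therefore how this set was made, not a result, and it also favours long features with few reads, so length and read number are not free of that choice.

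The study followed long non-coding RNA in the ovary as gilts, young female pigs, grow. Ovaries came from 6 Landrace x Yorkshire crossbred animals reared together on the same feed, aged 30 or 90 days, and the labels name no treatment beyond freezing of the tissue after slaughter. Equal amounts of RNA from each animal of an age went into a single pool, and each pool gave 1 library, so the spread between animals cannot be seen and no test between ages exists. The library totals were 9376506 reads at 30 days and 10706106 at 90 days, in which 1 read was worth 0.107 CPM (the count divided by the library total, times 1e+06) and 0.0934 CPM.

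Long non-coding RNAs are transcripts with no sizeable open reading frame, many of which are spliced and polyadenylated like messenger RNAs. They tend to be less abundant than messenger RNAs and restricted to fewer tissues. In the ovary, oocytes lie in follicles lined by granulosa cells and later wrapped in theca cells, and the growth of follicles after birth changes which of these cell types contribute RNA. The files do not pair the members with gene names. A search of the reference name tables matched 0 of the 2086. Coding status, genome position, sequence and cell of origin were therefore not analysed here, and the ovary label was not checked against marker genes. In pooled tissue RNA, fewer cells of a type and less RNA per cell cannot be told apart.

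Members were long. Their lengths ran from 349 to 26530 bases with a median of 2867.5 and quartiles of 1861 and 4509 bases. Other Unigenes had a median of 841 bases, with quartiles of 569 and 1246. Only 80 members (3.84%) were under 1000 bases, against 53081 other Unigenes (61.9%). At the upper end, 447 members (21.4%) reached 5000 bases, against 819 other Unigenes (0.956%), so members supplied 35.3% of the 1266 Unigenes of that size. The longest feature of the whole catalogue was a member, as were 8 of the 10 longest and 66 of the 100 longest. Members made up 2.38% of the Unigenes but 7.64% of their summed length.

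**Figure D1:**
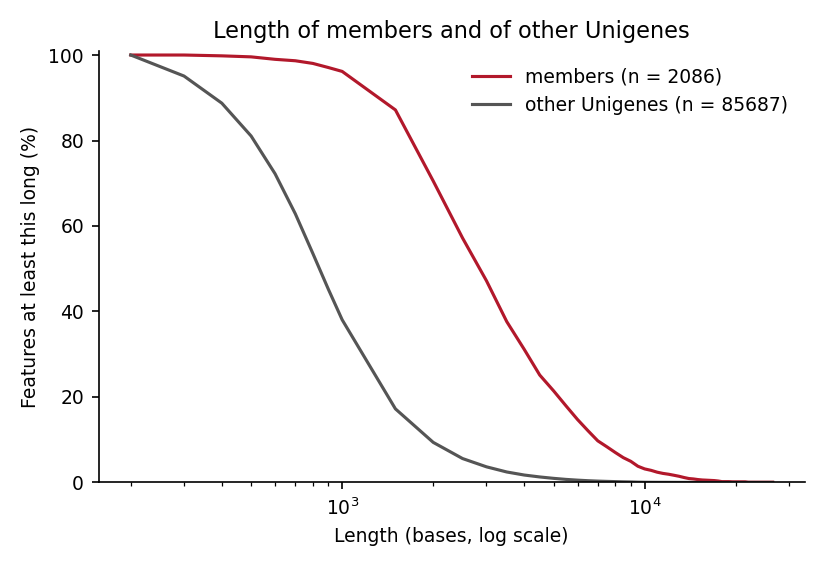
Percent of features (vertical axis) that are at least as long as the length on the horizontal log axis, in bases, for 2086 members (red) and 85687 other Unigenes (grey). The curve of the members lies to the right: 96.2% of them reach 1000 bases, against 38.1% of other Unigenes.

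The longest members had few reads for their length. Median read numbers rose slowly with length, from 2 at both ages in the 487 members of 2000 to 3000 bases to 4 at both ages in the 381 of 5000 to 10000 bases, and 13 and 10 in the 66 of 10000 bases or more. The 34 other Unigenes of 10000 bases or more had medians of 422.5 reads at 30 days and 239 at 90 days. Detection rose with length as well: 32.0% of members of 1000 to 2000 bases and 78.8% of those of 10000 bases or more had reads in both libraries. The 5 longest members measured 26530, 21929, 21636, 19034 and 17820 bases. At 26530 bases, 2 reads at 30 days and 6 at 90 days were found, which covered 180 and 443 of its bases, or 0.68% and 1.67%. That of 21929 bases had 23 and 31 reads on 781 and 1127 bases, and that of 21636 bases had 39 and 41 reads on 939 and 839 bases. Those of 19034 and 17820 bases had 22 and 42, and 8 and 16 reads. None of the 5 reached 5 CPM in either library, and 4 of them had 1 CPM or more in at least 1. The exact 95% interval of the CPM ratio held 1 for each of the 5. The shortest members showed the opposite balance of length and coverage. At 349 bases, the shortest member had 8 reads in the 30-day library, covering 87.7% of its length, and none in the 90-day library. Those of 380, 387, 393 and 435 bases had 2, 0, 2 and 4 reads at 30 days and 0, 2, 0 and 0 at 90 days.

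Read numbers were small at both ages. At 30 days 1641 members (78.7%) had at least 1 read and at 90 days 1488 (71.3%), with a median of 4 reads among those listed at either age. Exactly 2 reads were recorded for 587 members at 30 days, 35.8% of those listed, and for 504 at 90 days, 33.9%. In other Unigenes 6.28% and 8.44% of listed features had 2 reads. At least 10 reads were found for 396 members at 30 days and 363 at 90 days, and at least 100 reads for 33 and 27. All members together held 23413 reads at 30 days, 0.250% of the library (exact 95% interval 0.247% to 0.253%), and 18210 reads at 90 days, 0.170% (0.168% to 0.173%). Per kilobase of summed length this came to 3.08 and 2.39 reads, against 40.0 and 32.2 in other Unigenes. These intervals describe counting error alone, as each age had 1 pool. They take each read as separate, although reads lacking molecular identifiers need not stem from separate molecules.

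On the library total, the summed level of the members fell between the ages, and so did that of all Unigenes. Their summed CPM was 2497 in the younger and 1701 in the older pool, a ratio of 0.681 (90 days over 30 days, 0.668 to 0.695). For all Unigenes the same ratio was 0.705 (0.704 to 0.706), so the fall was somewhat larger in members. As a share of Unigene reads, members therefore held 0.632% at 30 days and 0.611% at 90 days. The fall in CPM depended on the scale. The 4 leading features of the catalogue, none of them a member, took a large share of each library, and with their reads removed from the totals (called the reduced total below) the ratio of the members was 0.984. For all Unigenes it was 1.02 on the reduced total. Without the 10 members with the most reads, which held 28.6% of the members' reads at 30 days and 21.2% at 90 days, the ratio was 0.752 on the library total and 1.09 on the reduced total. Without these 10 the members' ratio thus lay above that of all Unigenes, and with them below it.

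Coverage, the trait that chose the set, was low in nearly every listed member. Among members with a read, the median covered part was 6.96% of the length at 30 days and 6.65% at 90 days, and 68.7% and 74.1% of them were covered over less than 10%. Other Unigenes had medians of 81.2% and 68.2%. Only 10 members were covered over at least 50% in either library. The 5 best covered were of 349, 453, 473, 1962 and 521 bases, with a larger value of 87.7%, 81.5%, 78.4%, 69.4% and 62.8%. Summed over all members, reads touched 6.09% of the bases at 30 days and 5.23% at 90 days, against 61.0% and 50.5% in other Unigenes. At the limit itself, the 3 last members, numbered 12127, 12128 and 12173, were covered over at most 9.66% in either library, and the 3 next Unigenes, numbered 12191 to 12193, over 90.0%, 95.2% and 73.0% at 30 days and 86.5%, 58.1% and 42.1% at 90 days. Their lengths stepped as well, from 1408, 1598 and 1837 bases inside the limit to 897, 770 and 867 bases outside it.

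Covered bases were also set side by side at like read numbers and lengths. Every feature with 1 read, in either library, was covered over 90 bases, so a read was 90 bases long. Features of 1861 to 4509 bases, the middle lengths of the members, were then compared within the same ranges of read number. With 2 to 3 reads at 30 days the median covered length was 144 bases in 324 members and 172 bases in 536 other Unigenes. With 10 to 19 reads it was 349 bases in 97 members and 597 bases in 893 other Unigenes, and with 20 to 49 reads 504 bases in 55 and 1137 bases in 1499. With 100 reads or more, a range with no upper end, it was 717 bases in 16 members and 2483 bases in 2316 others. At 90 days these values were 139 and 156, 319 and 617, 422 and 1068, and 643 and 2387 bases, the last with 12 members. These ranges do not make read numbers equal: at 2 to 3 reads, more of the other Unigenes had 3. At exactly 2 reads the medians were 142 bases in 295 members and 164 in 431 other Unigenes at 30 days, and 139 and 148 bases at 90 days. At exactly 10 reads they were 254 and 442 bases at 30 days, with 25 members, and 318 and 495 bases at 90 days, with 31. At each of 2, 4, 6, 8, 10 and 12 reads the median was lower in members, at both ages. As coverage chose the members, this is a description of them and has no test.

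**Figure D2:**
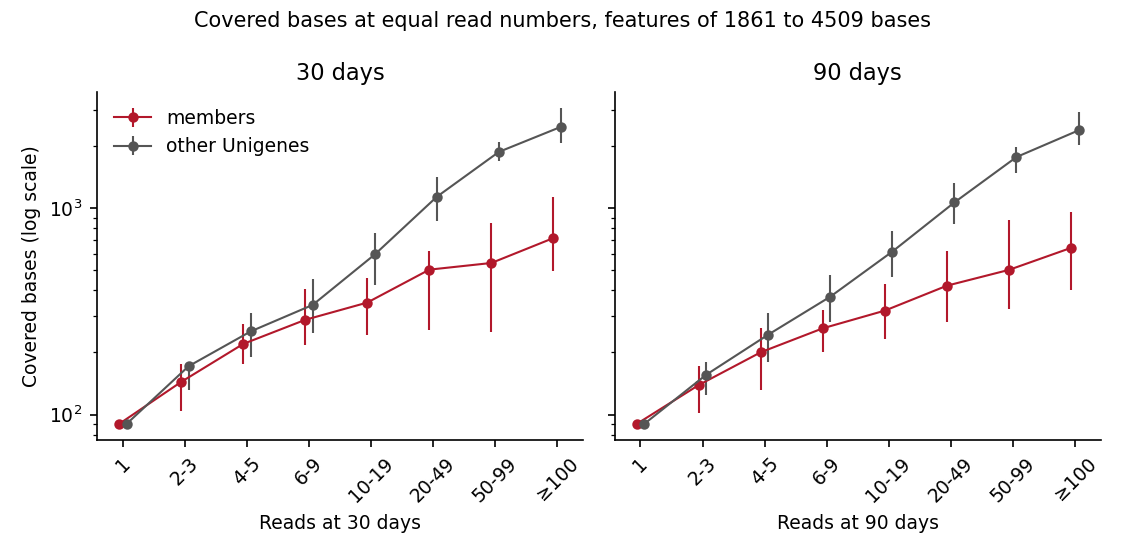
Covered bases (vertical log axis) by read number for features of 1861 to 4509 bases at 30 days (left) and 90 days (right). Points are medians and bars quartiles over members (red) and other Unigenes (grey). The curves start together at 90 bases for 1 read and lie apart in the last range, at 717 against 2483 bases at 30 days and 643 against 2387 at 90 days. That range has no upper end and holds 16 members at 30 days and 12 at 90 days.

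In a few members many reads lay within less than 2 read lengths at both ages. Of 124 members with at least 20 reads in each library, 4 had under 180 bases covered in both (3.23%), against 13 of 18959 other Unigenes (0.0686%). Coverage chose the members and lengths are not matched here, so these shares are a description with no test. The member of 3760 bases had 60 reads on 111 bases at the younger age and 58 reads on 109 bases at the older. The member of 2557 bases had 50 reads on 119 bases and 24 reads on 118 bases. In the member of 1818 bases 44 reads lay on 145 bases and 72 reads on 139, and in that of 1193 bases 21 reads on 161 and 20 reads on 163. Longer members could also have many reads on few bases, though on more than 2 read lengths. The member of 12063 bases had 56 and 39 reads on 386 and 385 bases, and that of 10129 bases 212 and 107 reads on 383 and 370 bases. Whether the same bases were covered at both ages is not shown by the tables, which give only their summed length. Over all 124 members the median ratio of covered bases (90 days over 30 days) was 0.957, and in 40 of them (32.3%) it was within 10% of 1. In the 18959 other Unigenes the median ratio was 0.995, and 10014 (52.8%) were within 10% of 1. These shares are not matched for length or covered part, so they do not compare like features. With 20 to 49 reads at 30 days, the median length was 4316 bases in members and 844 in other Unigenes. The median covered part was 11.8% and 89.5%.

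Even read numbers were frequent in members. Of the listed members, 80.2% had an even read number at 30 days (exact 95% interval 78.2% to 82.1%) and 80.1% at 90 days (78.0% to 82.1%), against 53.1% and 55.3% of other Unigenes. The even share varied with the read number, so the comparison was repeated by ranges of read number within 1861 to 4509 bases. With 2 to 3 reads at 30 days, 91.0% of members (87.4% to 93.9%) and 80.4% of other Unigenes (76.8% to 83.7%) had 2. With 6 to 9 reads the even share was 86.4% (78.5% to 92.2%) and 68.3% (64.1% to 72.2%). At 90 days the same bins gave 92.0% (88.2% to 94.9%) against 82.2% (78.6% to 85.4%), and 79.5% (72.1% to 85.6%) against 68.9% (65.3% to 72.4%), where the latter intervals overlap slightly. With 20 to 49 reads it was 67.3% (53.3% to 79.3%) against 54.6% (52.0% to 57.1%) at 30 days and 76.0% (61.8% to 86.9%) against 55.6% (53.2% to 57.9%) at 90 days. The share was thus higher in members in each bin above 1 read, but the intervals overlapped in some of them. Features of the same library are not independent replicates, so neither the intervals nor their overlap is a test between the groups. Where reads came in pairs, the counting intervals given here are too narrow.

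**Figure D3:**
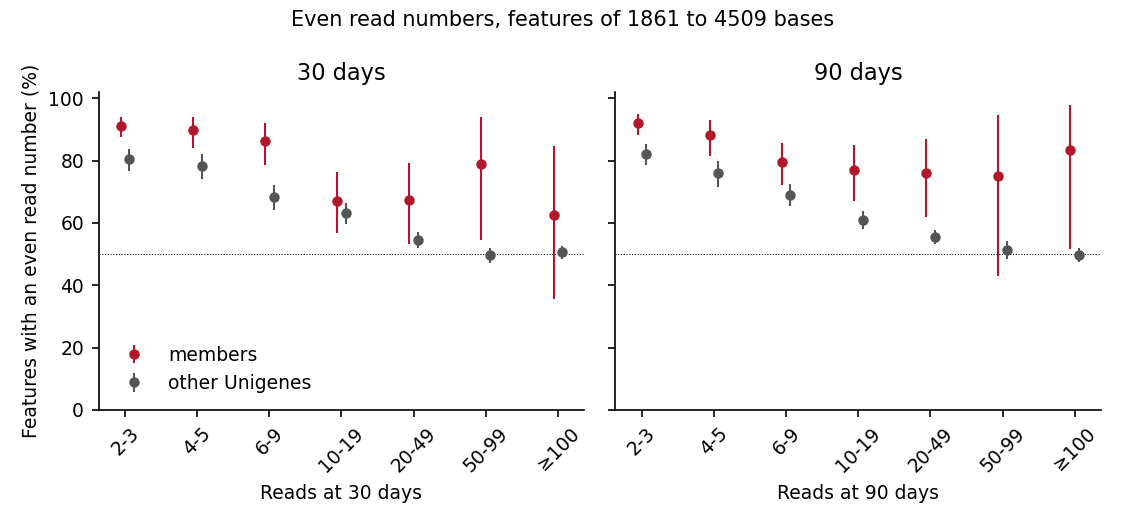
Percent of features with an even read number (vertical axis) by read number, for features of 1861 to 4509 bases at 30 days (left) and 90 days (right). Points are shares of members (red) and other Unigenes (grey), bars exact 95% intervals, and the dotted line marks 50%. Members lie above other Unigenes in every bin, from 91.0% against 80.4% at 2 to 3 reads at 30 days.

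When exactly 2 reads were present in a member, they covered a median of 145 bases at 30 days and 138 at 90 days. They overlapped fully, at 90 bases, in 65 of 587 and 58 of 504 members, and did not overlap, at 180 bases, in 113 and 65. A value counted as 90 or 180 bases when it differed by no more than the rounding of the covered percent to 2 decimals allows, which was at most 1.33 bases.

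Members were often seen at 1 age only. Reads in both libraries were found for 1043 members, 50%, against 84.0% of other Unigenes. Of the rest, 598 had reads only at 30 days and 445 only at 90 days, with a median of 2 reads in each case. This pattern was strongest at the lowest read numbers. A read in the 90-day library was found for 41.9% of the 637 members with 2 to 3 reads at 30 days, for 71.2% of the 243 with 6 to 9 reads, for 94.6% of the 202 with 10 to 19 and for 95.2% of the 125 with 20 to 49. All 36 members with 50 to 99 reads at 30 days and all 33 with more had reads at 90 days. In other Unigenes of middle length 64.9%, 87.0%, 94.6% and 98.5% were found again in the same bins, and in members of that length 46.9%, 70.9%, 95.9% and 94.5%. From 90 to 30 days, members of middle length were found again in 52.9%, 75.5%, 89.5% and 100% in these bins. Other Unigenes of that length were found again in 75.2%, 92.9%, 97.4% and 99.8%. At 2 to 3 and at 6 to 9 reads the share was lower in members in both directions.

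Absence at 1 age therefore rested on few reads in most members. At least 10 reads at the other age were present for 17 members absent at 90 days and for 17 absent at 30 days, and at least 20 reads for 6 and 0. The member of 10465 bases had 34 reads at the younger age, over 1295 bases, and none at 90 days. Its CPM was 12.9-fold lower against the 3 reads per library that a count of 0 allows, and with the counting error of the 34 reads included the exact 95% limit was at least 9.96-fold lower. The members of 1534 and 2432 bases had 33 and 22 reads at 30 days and none at 90 days, with exact limits of at least 9.65-fold and 6.25-fold lower. In the opposite direction, the most reads of a member absent at 30 days were 14, found in members of 2147, 4309 and 2426 bases, each with an exact limit of at least 2.91-fold higher at 90 days. These limits hold for 1 feature taken alone, not for those picked as extremes. They also count each read as separate, so they lie too far from 1 where reads came in pairs.

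Where reads were sufficient, both ages ordered the members alike. Over 265 members with at least 10 reads in each library, log2 CPM at 30 and 90 days had a Pearson correlation of 0.856 and a Spearman correlation of 0.737. Over 37222 other Unigenes the values were 0.519 and 0.336. Over 118 Ensembl transcripts they were 0.926 and 0.844, so a high correlation was not particular to members. These are correlations across features of the same pair of libraries, which share depth and catalogue, and features are not independent replicates. The CPM of 211 of these 265 members (79.6%) differed by less than 2-fold between the ages. The share was 55.4% in the other Unigenes and 61.0% in the Ensembl transcripts. At 20 reads in each library the shares were 82.3% of 124 members and 64.9% of 18959 other Unigenes. At 50 reads they were 72.0% of 50 and 72.7% of 6094, so these shares were close at the highest read numbers. The Pearson correlations there still differed, at 0.840 in members and 0.652 in other Unigenes. The shares within 2-fold use the library total and were not computed on the other scalings.

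The comparison of the ages called a feature higher or lower when log2((CPM at 90 days + 1)/(CPM at 30 days + 1)) reached a 2-fold difference, provided that 1 or both libraries reached 1 CPM for it. It could be made for 464 members (22.2%), against 85.6% of other Unigenes. Of these members 20 were at least 2-fold higher at 90 days (4.31%), where 14.6% of all 73973 features compared were higher. At least 2-fold lower were 62 members (13.4%), where 36.6% of all features were lower. The other 382 lay between. The median log2 fold was -0.37 in the members compared and -0.49 over all features. Among the 20 higher members 8 had an exact 95% interval of the CPM ratio entirely past 2-fold, and among the 62 lower members 45 did. That interval held 1 for 260 of the 464. These counts of intervals use the library total and were not made for all features, so they cannot be set against the catalogue. Both shares of called members were below the background, and the members that could be compared were those with the most reads, so no statement on the set as a whole follows.

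**Figure D4:**
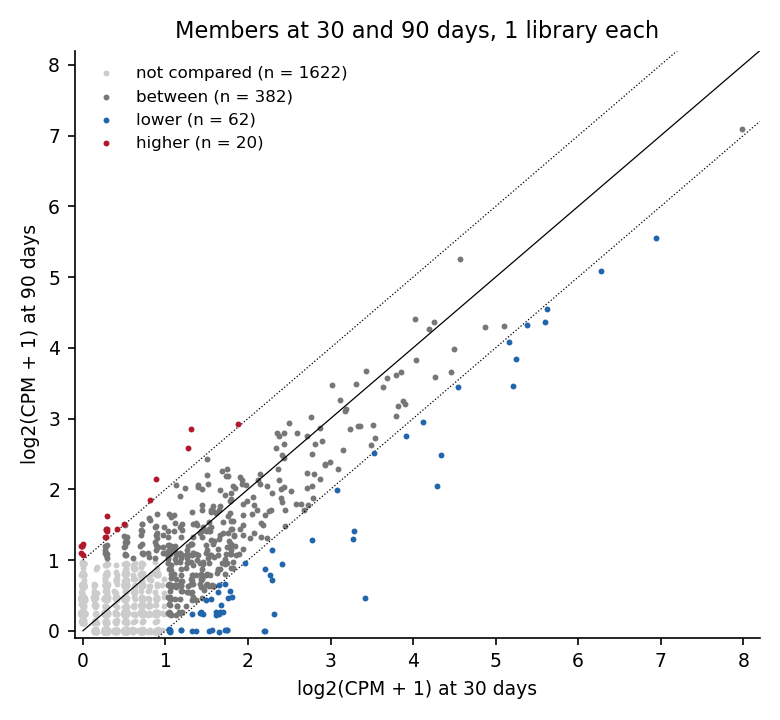
Each point is 1 of 2086 members, with log2(CPM + 1) at 30 days on the horizontal and at 90 days on the vertical axis, slightly jittered; the solid line marks equality and the dotted lines 2-fold. The 382 grey members between the lines outnumber the 62 lower (blue) and 20 higher (red) ones, and light grey marks the 1622 members under 1 CPM in both libraries.

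Direction depended on the scale. TMM factors raised every log2 ratio of CPM, before the pseudocount, by 0.39, median-of-ratios factors by 0.41 and the reduced total by 0.53. TMM gave 43 members higher and 39 lower (21.3% and 30.0% of all features), and median-of-ratios 45 and 38 (21.9% and 29.6%). On the reduced total there were 264 higher and 143 lower of 1078 members compared (30.5% and 32.7% of all features). That total also lifts every CPM against a fixed pseudocount and minimum. A pseudocount of 0.1 in place of 1 gave 52 higher and 149 lower members (23.6% and 44.7% of all features). A minimum of 5 CPM left 80 members, of which 3 were higher and 19 lower (14.5% and 46.8%), and at 4-fold 0 members were higher and 5 lower (1.49% and 9.06%). The excess of lower over higher members on the library total thus did not hold under the other scalings.

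Which age had more reads is fixed by the call itself. Median lengths were 2471.5 bases for the 20 higher members, 6 of which lacked reads at 30 days, and 3557 bases for the 62 lower ones, 17 of which lacked reads at 90 days. The lengths have no test and rest on calls that depend on the scale. From a mean of 10 CPM upwards, 12 of 32 members were lower (37.5%) and none higher, against 38.4% lower and 10.1% higher of the other Unigenes at that level. With TMM factors 5 were lower and 1 higher of those 32, against 31.8% and 15.4% of other Unigenes, and on the reduced total 3 and 1, against 30.5% and 18.7%. At 5 to 10 CPM 5 of 30 members were lower and none higher, against 40.1% and 13.1% of other Unigenes. At 2 to 5 CPM 8 of 103 were lower (7.77%) and 4 higher (3.88%), against 34.3% and 13.5%. At 1 to 2 CPM 21 of 189 were lower (11.1%) and 4 higher (2.12%), against 38.3% and 14.4%. At 0.5 to 1 CPM 16 of 110 were lower (14.5%) and 12 higher (10.9%), against 34.4% and 25.2%.

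The members named next have the 2 smallest and the 2 largest log2 folds with the pseudocount of 1 CPM, which shrinks differences of members with few reads, so the order by CPM ratio is another: the member of 10465 bases with 34 reads and none exceeds Unigene3689_All. Unigene5901_All, of 4027 bases, had 90 reads in the younger and 4 in the older pool (9.60 and 0.374 CPM), and its covered part was 48.0% and 7.90%. Its CPM was 25.7-fold higher at 30 days (9.69 to 96.3). Unigene3689_All, of 3492 bases, had 173 and 33 reads (18.5 and 3.08 CPM), which was 5.99-fold higher at 30 days (4.11 to 8.97). Both stayed past 2-fold under the 3 other scalings and with a pseudocount of 0.1. In the opposite direction, Unigene7795_All, of 2015 bases, had 14 and 66 reads (1.49 and 6.16 CPM), a 4.13-fold higher CPM at 90 days (2.30 to 7.96). Its reads covered 424 bases at 30 days and 378 at 90 days, fewer bases with more reads. Unigene3262_All, of 828 bases, had 13 and 54 reads (1.39 and 5.04 CPM), a 3.64-fold higher CPM (1.96 to 7.27), on 166 and 258 bases. These members also stayed past 2-fold under the same alternatives. All members named here were picked as extremes, and their intervals hold only for 1 feature taken alone.

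The 10 members with the most reads are described by length. The most abundant, of 13013 bases, had 2361 and 1441 reads at 30 and 90 days (251.8 and 134.6 CPM), a ratio of 0.535 (90 days over 30 days, 0.500 to 0.571). Its covered part was 45.8% and 41.4%. The member of 5859 bases had 1140 and 485 reads, a ratio of 0.373 (0.334 to 0.415), and that of 7978 bases had 716 and 357 reads, a ratio of 0.437 (0.384 to 0.497). Those of 4246, 17580 and 5391 bases had 456 and 238, 440 and 208, and 382 and 206 reads. The member of 3882 bases had 310 and 203 reads on 413 and 435 bases. Those of 7281 and 4022 bases had 323 and 173, and 350 and 144 reads.

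The member of 3391 bases stood apart from the others in this group of 10, with 212 reads in the younger and 400 in the older pool, a ratio of 1.65 (1.40 to 1.96). Its reads lay on 384 and 361 bases. The other 9 had log2 folds below 0 on each of the 4 scalings run, but how many passed 2-fold depended on the scale. On the library total 7 were at least 2-fold lower, with TMM 2, with median-of-ratios 1 and on the reduced total 0, where 36.6%, 30.0%, 29.6% and 32.7% of all features were lower. The member of 3391 bases passed 2-fold as higher with each of these 3 scalings.

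Abundant members had neighbouring numbers. The members numbered 3868 to 3872, with lengths of 7281, 7978, 5859, 17580 and 13013 bases, are all among the 10 with the most reads. Together they held 21.3% of the members' reads at 30 days and 14.6% at 90 days. They end a stretch in which length and reads rose with the number. From 3000 to 3872, 709 of 873 numbers (81.2%) were members, and across these the Spearman correlation of the number was 0.50 with length and 0.37 with summed reads. The median length rose from 3383 bases at 3000 to 3099 to 4027 at 3400 to 3499, 6063 at 3700 to 3799 and 8229 at 3800 to 3899. The median read number at 30 days was 3, 4, 8 and 19.5 in these steps, and at 90 days 2, 4, 8 and 17. This stretch held 69.6% of the members' reads at 30 days and 67.7% at 90 days, and 52 of the 66 members above 10000 bases. It also held 6 of the 20 higher and 30 of the 62 lower members, from 284 compared, where 14.6% of all features were higher and 36.6% lower.

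After number 3872 the pattern broke off. The next member was numbered 3882, and from 3873 to 12173 only 944 of 8301 numbers (11.4%) were members, with a median length of 2258.5 bases and 14.9% and 17.9% of the members' reads. Before 3000, from 1940 on, 433 of 1060 numbers (40.8%) were members, with a median of 2267 bases. There the Spearman correlation of the number was -0.034 with length and -0.019 with summed reads. Among other Unigenes 74.1% of the numbers were present. Detection at both ages followed the same division, with 53.6% of members before 3000, 72.1% from 3000 to 3872 and 31.8% after it having reads in both libraries.

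Beyond 4000 the lengths rose and fell along the numbers in repeated waves. In steps of 400 numbers, the median length fell from 2814 bases at 4000 to 4399 (73 members) to 1726 at 5200 to 5599 (29 members), and stood at 2860.5 at 5600 to 5999 (62 members). It fell again to 1834.5 at 6400 to 6799 (28 members) and returned to 2956 at 7200 to 7599 (63 members). The following low points were 1486.5 bases at 8400 to 8799 (18 members) and 1465 at 10000 to 10399 (26 members). The high points after them were 2630.5 at 8800 to 9199 (56 members) and 3095 at 10400 to 10799 (41 members). The last full step, 11600 to 11999, had a median of 1513 bases in 24 members. The steps with a median above 2500 bases held 41 to 84 members, and those with a median under 2000 bases 18 to 32. Without the step of 18 members, the step before it, at 8000 to 8399, was still low at 1613 bases. Median read numbers hardly followed these waves: they were 2 at each age in all of these steps, except 0 at 90 days in the last. In other Unigenes, medians in steps of 400 numbers also varied, from 531 to 1114.5 bases over 290 steps of at least 169 features. A spread between such steps was therefore not particular to members. In wider steps of 10000 numbers, from 15000 to 124999, the medians of other Unigenes lay between 791 and 882 bases. The steps were drawn after the waves had been seen, and they are a description with no test.

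**Figure D5:**
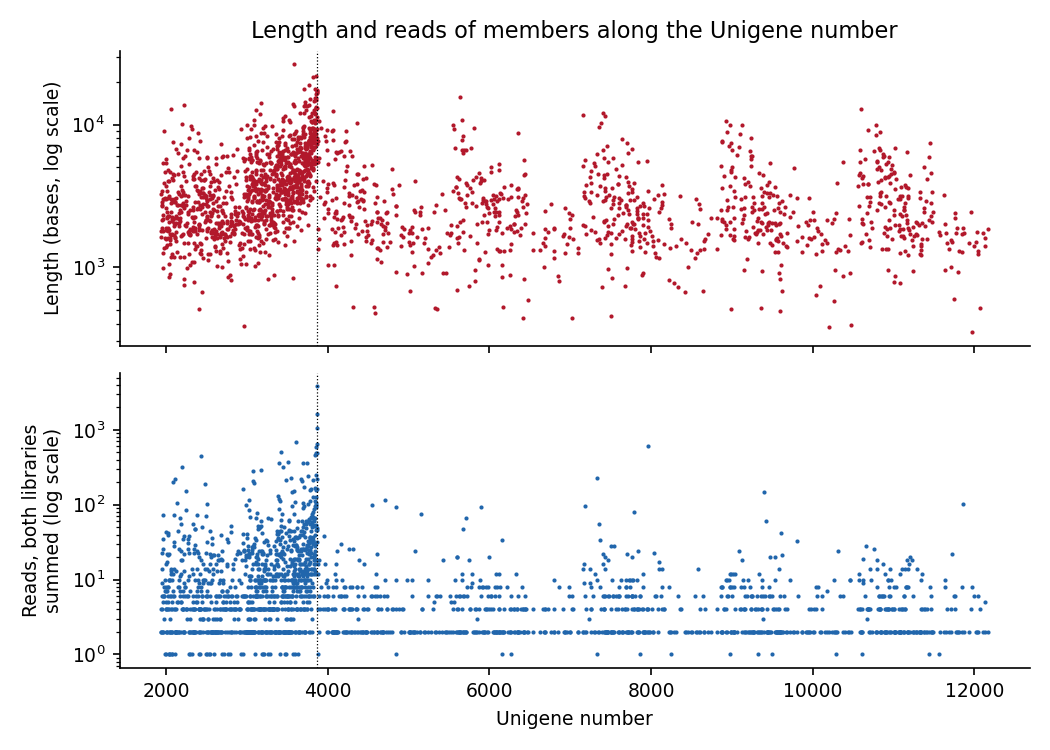
Length in bases (top) and reads summed over both libraries (bottom), both on log axes, against the Unigene number, with 1 point per member (n = 2086); the dotted line marks number 3872. Length and reads rise from number 3000 to 3872, the end of the stretch, and beyond it lengths form repeated waves while most members have few reads.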

How the data were processed

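RNA of 2 pools was measured, 1 library per age. Each deposited table gives, per the file headers, a count of uniquely assigned reads per feature, the length, the percent of it that is covered, and RPKM. The deposited counts summed exactly to the header totals, and RPKM as deposited followed from count, length and total in all rows (relative tolerance 1e-06); RPKM entered no result. The submitters' processing notes name TopHat, Cufflinks and build Sscrofa10.2 and give neither version nor role. Annotation, counting tool and assembly: not given in the sources used here.

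Every listed feature had 1 read or more, and absence from a table was taken as 0 reads. CPM is the count over the library total. The 2-fold rule used a pseudocount of 1 CPM and a minimum of 1 CPM in at least 1 library, over the whole catalogue. The pseudocount understates changes of low features. With 1 library per age no p-value was computed. Intervals are exact (Clopper-Pearson, 95%). Covered bases are the covered percent times the length. The size rule was tested on simulated data with 4-fold changes planted in features with a mean of at least 20 CPM. The intervals were tested at about 50 simulated reads per library. Most members compared had lower levels, at which no change was planted. Members and lists were chosen with earlier results of these data known. Members are named by identifier only for the 2 largest and the 2 smallest log2 folds, and otherwise by length: the 10 with most reads, the 5 longest, shortest, best covered, and least covered at 20 reads or more in each library, the 3 with most reads at 1 age only, and the 3 on each side of the limit. Members under 180 covered bases in both libraries and numbers 3868 to 3872 were picked after their values were seen. Python 3.11.15, pandas 2.3.3, SciPy 1.17.1 and, for TMM factors, edgeR 4.0.16 were used. Pseudocount, filter, fold threshold and scaling had alternatives. Gene names, genome positions and sequences of the members were not used here.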

Additional observations from a re-analysis of the deposited data

How the results depend on the processing

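No paired analysis was possible because there is a single library for each age, so no library could be left out either. Of the alternatives, 3 changed a value little, 29 moved it and 3 turned its direction. Against 20 higher and 62 lower members with a median log2 fold of -0.37, a pseudocount of 0.1 gave 52, 149 and -0.53, a minimum of 5 CPM 3, 19 and -0.59 with fewer features compared, and a 4-fold threshold 0 higher and 5 lower members. No filter left the counts as they were and gave a median of -0.15 over all members. TMM factors gave 43, 39 and a median of 0.030, median-of-ratios factors 45, 38 and 0.043, and totals reduced by the 4 leading features 264, 143 and 0.31, so the median turned positive with each of these scalings. On the reduced total more members were compared as well. The remaining values moved because the alternative asks for other reads or members. The share of reads held by members was 0.632% and 0.611% of Unigene reads at 30 and 90 days, and, chosen after seeing the data, 0.178% and 0.134% of all reads without the 10 members with most reads. The median covered percent was 10.8 and 9.98 in members with at least 10 reads and 5.51 and 4.45 over all members. Reads in both libraries were found for 29.7% of members when at least 3 reads were asked in each, and for 94.9% of those with at least 10 reads in all. Covered bases per read had medians of 22.2 and 20.7 from 10 reads and of 13.4 and 12.0 from 20 reads. The median length was 3975 bases in members with at least 10 reads in all. The Pearson correlation between the ages was 0.879 at 20 reads in each library and 0.753 at 1 read. At the depth of these libraries 1 CPM takes 10 reads at 30 days and 11 at 90 days, and 1622 members stayed under 1 CPM at both ages and were not compared.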
